A study of Mus musculus with 6 samples.

Results

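The 41 genes described here encode the proteins that carry glucose into the cell, split it to pyruvate, exchange pyruvate for lactate or pass it to the mitochondrion, and store glucose as glycogen. They were chosen by name from the 28909 gene names on the array. Each gene was read from 1 probe, the one with the highest mean log2 intensity over the 6 arrays. The 41 genes had 60 probes in all, with 1 probe for 26 genes and more than 1 for 15 genes. All 41 chosen probes were well above background on all 6 arrays, so every gene entered the test. Glucose enters the heart mainly through the insulin-responsive carrier Slc2a4 and the basal carrier Slc2a1, and hexokinases hold it in the cell as glucose 6-phosphate. Phosphofructokinase commits the sugar to glycolysis and is switched on by fructose 2,6-bisphosphate, which the Pfkfb enzymes make and remove. Pyruvate leaves the pathway as lactate or enters the mitochondrion, where the pyruvate dehydrogenase complex turns it into acetyl-CoA and the Pdk kinases switch that complex off. Glycogen is the heart's own glucose store, built by glycogen synthase and opened by glycogen phosphorylase.

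Cardiac muscle of male C57BL/6 mice was compared between a sham group and a group held in tail-suspension for 28 days, a model of weightlessness in which the hindlimbs are lifted off the floor. Each group had 3 mice and each mouse had 1 array with 1 colour, and the sham mice were kept under the same feeding conditions without suspension. The labels give an age of 10 weeks at the start and, for the same animals, an age of 11 weeks, which 28 days of suspension do not allow. The 6 arrays shared 1 slide and 1 scan. Its first row held the sham arrays and tail-suspension replicate 1, and its second row held replicates 2 and 3 of tail-suspension. Of 55681 probes, 50.9% to 53.4% were well above background per array, and no spot was saturated. All 8 cardiomyocyte markers were well above background on all 6 arrays, and of 7 markers of fast skeletal muscle Tnni2 and Atp2a1 were so on all 6 arrays, Tnnt3 on 5, and Myh1, Myh2, Myh4 and Mylpf on none. Levels below are log2 processed intensities relative to the 75th percentile of their array, and a difference is the tail-suspension mean minus the sham mean on that log2 scale. Tests are by limma with Benjamini-Hochberg adjustment over 28032 probes.

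Between the groups, 5 of the 41 genes rose and 7 fell past an adjusted p of 0.05. The 5 that rose were Slc2a1 and Slc16a3, which carry glucose and lactate through the cell membrane, Pfkfb3, which makes fructose 2,6-bisphosphate, the liver glycogen phosphorylase Pygl and the pyruvate dehydrogenase kinase Pdk1. The 7 that fell were Hk2, the main hexokinase of adult striated muscle, the brain glycogen phosphorylase Pygb, the muscle enolase Eno3, the phosphorylase kinase subunit Phkb, and Pdhb, Dlat and Dld, which are 3 of the 4 pyruvate dehydrogenase complex genes in the set. The 12 genes are 29.3% of the set, beside 21.2% of the 17137 genes tested on the array that passed in either direction, 10.6% that were higher and 10.5% that were lower. The size of the changes was modest, since none reached 2-fold. The median difference over the 41 genes was 0.05, beside -0.01 over all genes tested. The median size without sign was 0.23 in the set and 0.23 over all genes. The groups did not overlap for 18 of the 41 genes, beside 46.5% of all genes tested. These 18 held all 12 genes past the threshold and 6 of the 29 that did not pass. In RNA from whole tissue, fewer cells of a type and less RNA per cell cannot be told apart.

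**Figure D1:**
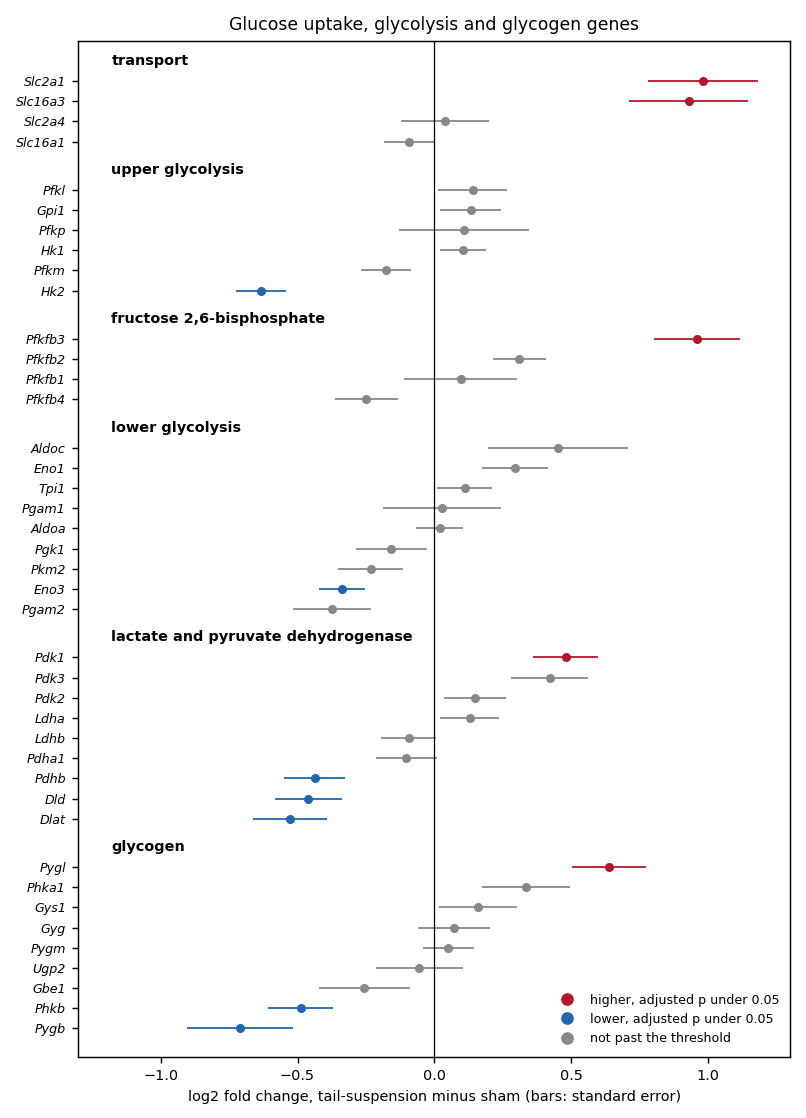
Log2 fold change of each of the 41 genes, tail-suspension minus sham (horizontal axis), ordered by step of the pathway, with the standard error of the limma fit as bars and colour for the call at an adjusted p of 0.05. The largest rises, of Slc2a1, Pfkfb3 and Slc16a3, lie between 0.93 and 0.98, and the lowest value is that of Pygb at -0.71.

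The position of the arrays on the slide goes partly with the group, and each call rests on few arrays. With slide row as a block, the group difference rests on tail-suspension replicate 1 against the 3 sham arrays, and 0 genes of the set passed by limma in either direction, with 6 higher and 3 lower at an unadjusted p under 0.05. In that fit 1.22% of all genes were called higher and 0.677% lower. Tail-suspension replicate 1 lay on the side of the call for all 12 genes. That follows from groups that do not overlap and is no separate support for the calls. With 1 array left out, 2 genes rose and 1 fell without sham replicate 1, 1 and 1 without sham replicate 2, 3 and 4 without sham replicate 3, 2 and 1 without tail-suspension replicate 1, 6 and 3 without tail-suspension replicate 2, and 3 and 1 without tail-suspension replicate 3. Hk2 and Pfkfb3 passed the adjusted threshold whichever array was left out, and the other 10 genes missed it without at least 1 array.

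**Figure D2:**
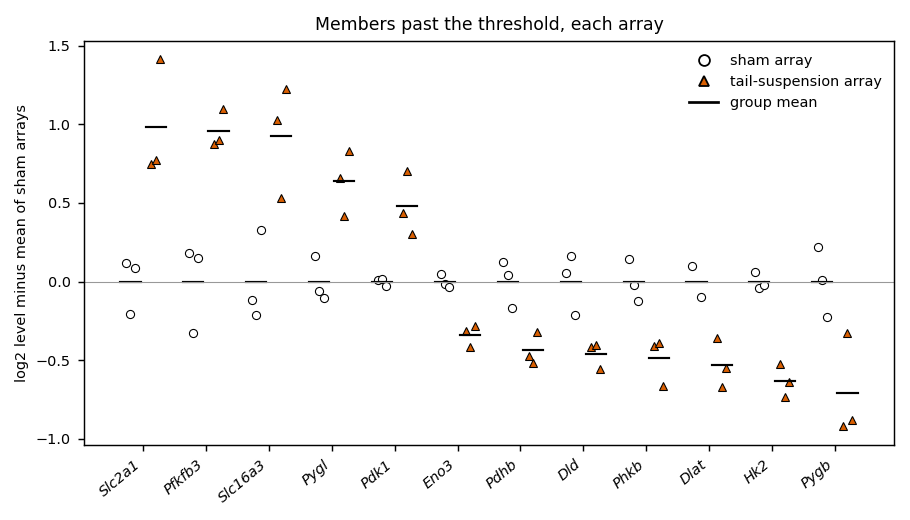
Log2 level of the 12 genes past the threshold on each array, minus the mean of the sham arrays of that gene (vertical axis), with open circles for sham, triangles for tail-suspension and short lines for group means. The 2 groups do not overlap for any of the 12 genes, and Dlat has only 2 sham points because 1 of its spots carried an outlier flag.

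Promoter sequence is shown for the 3 genes with the largest rises and for Hk2, which fell, because these genes are textbook targets of hypoxia-inducible factor, whose response elements hold the core ACGTG. The 250 bases before the outermost start of each gene come from RefSeq (assembly GRCm38.p6), 5′ to 3′ on the strand of the gene, and capitals mark ACGTG or its reverse complement CACGT.
Slc2a1 (chr4:119108495-119108744, plus strand): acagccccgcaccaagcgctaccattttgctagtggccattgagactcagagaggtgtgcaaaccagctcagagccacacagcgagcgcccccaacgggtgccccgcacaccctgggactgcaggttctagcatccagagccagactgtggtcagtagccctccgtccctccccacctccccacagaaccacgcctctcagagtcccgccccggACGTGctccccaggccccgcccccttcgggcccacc
Pfkfb3 (chr2:11553930-11554179, minus strand): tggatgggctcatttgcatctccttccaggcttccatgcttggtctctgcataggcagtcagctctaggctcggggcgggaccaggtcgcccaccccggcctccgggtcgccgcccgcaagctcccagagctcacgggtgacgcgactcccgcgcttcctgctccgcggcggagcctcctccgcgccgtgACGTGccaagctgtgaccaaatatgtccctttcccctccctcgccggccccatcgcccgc
Slc16a3 (chr11:120948817-120949066, plus strand): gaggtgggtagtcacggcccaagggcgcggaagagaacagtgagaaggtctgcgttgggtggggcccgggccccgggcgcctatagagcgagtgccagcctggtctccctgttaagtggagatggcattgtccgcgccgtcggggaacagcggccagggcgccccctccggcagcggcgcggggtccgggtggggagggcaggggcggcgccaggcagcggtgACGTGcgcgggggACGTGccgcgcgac
Hk2 (chr6:82774455-82774704, minus strand): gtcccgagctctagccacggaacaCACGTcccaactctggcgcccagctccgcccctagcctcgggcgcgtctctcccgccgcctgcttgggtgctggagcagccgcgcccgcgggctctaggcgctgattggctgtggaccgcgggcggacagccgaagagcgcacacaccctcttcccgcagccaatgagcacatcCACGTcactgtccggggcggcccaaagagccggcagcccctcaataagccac

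Counted back from the start, with -1 for the last base before it, the match begins at -36 in Slc2a1 and at -60 in Pfkfb3. Slc16a3 holds 2 matches, at -27 and -14, and Hk2 holds 2 matches, at -226 and -52. Of the 41 genes, 40 had an entry in the promoter table, 1 of them (Pkm2) under its newer symbol Pkm, and Slc2a4 had none. By their outermost start, 16 of these 40 windows held the core on either strand, where CACGTG counts as both, beside 16.6% of the 32851 promoter windows of the table. That second share counts every start of a gene and not the outermost alone, so the 2 shares are not of like windows. The core was in 4 of the 5 windows of genes that rose, in 3 of the 7 of genes that fell and in 9 of the 28 of genes that did not pass. Those that did not pass included Ldha with 5 matches and Pgk1 with 2, and the gene that rose without a match was Pdk1, whose sequence is not shown. Base composition was not taken into account, and a match to these letters is a description of the sequence and not a binding site. Hif1a, which encodes the oxygen-regulated subunit of the factor, was lower in tail-suspension (limma, log2 difference -0.36, standard error 0.10, adjusted p = 0.0488). That call was lost whichever of the 6 arrays was left out, with adjusted p of up to 0.151, and its second probe did not pass (-0.19, adjusted p = 0.533). The activity of the factor was not measured, and its part in these changes was not tested.

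Among the transporters, 2 of 4 rose and none fell. Slc2a1, the basal glucose carrier also known as GLUT1, had log2 levels of 1.57, 1.25 and 1.54 in the sham hearts, against 2.20, 2.23 and 2.87 in the tail-suspended hearts. All 3 tail-suspension arrays lay above all 3 sham arrays, and replicate 3 was the highest. The mean went from 1.45 ± 0.18 to 2.43 ± 0.38 (SD, n = 3 per group), a rise of 1.97-fold (limma, log2 difference 0.98, standard error 0.20, adjusted p = 0.022). The rise missed the threshold without sham replicate 1 or sham replicate 2, with adjusted p of up to 0.0799. In the row that both groups share, tail-suspension replicate 1 lay 0.75 above the sham mean. Slc16a3, the lactate exporter of glycolytic cells also known as MCT4, had log2 levels of -1.29, -1.38 and -0.84 in the sham hearts, against -0.15, -0.64 and 0.05 in the tail-suspended hearts. The groups did not overlap, with tail-suspension replicate 2 the nearest to sham. The rise was 1.9-fold (limma, log2 difference 0.93, standard error 0.22, adjusted p = 0.0316), and it passed only without sham replicate 3 or tail-suspension replicate 2 when 1 array was left out (adjusted p up to 0.106). Its other probe, which overlaps the chosen one on chromosome 11, gave a difference of 0.88 (adjusted p = 0.0263 by limma). Slc2a4, the insulin-responsive carrier of muscle and fat also known as GLUT4, had log2 levels of 7.52, 7.28 and 7.28 in the sham hearts, against 7.47, 7.08 and 7.63 in the tail-suspended hearts, and the groups overlapped (limma, log2 difference 0.04, standard error 0.16, adjusted p = 0.878). Slc16a1, the carrier through which the heart takes up lactate, had log2 levels of -3.38, -3.23 and -3.28 in the sham hearts, against -3.50, -3.35 and -3.32 in the tail-suspended hearts, and the groups overlapped as well (log2 difference -0.09, standard error 0.09, adjusted p = 0.51). Its only probe was dim, with processed intensities of 30.1 to 37.5 over the arrays, which leaves little room to show a fall.

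The genes that rose are also used by cells other than cardiomyocytes, and markers of such cells moved in the same samples. Of 5 neutrophil markers, 4 were tested and 3 rose (S100a8, S100a9 and Ltf). Over all genes tested, 10.6% were higher and 10.5% lower. S100a8 had log2 levels of -2.54, -2.88 and -3.38 in the sham hearts, against 3.31, 0.55 and 1.75 in the tail-suspended hearts. S100a9 had -0.49, -0.71 and -1.15 in the sham hearts, against 5.22, 2.61 and 3.67 in the tail-suspended hearts, so neither overlapped between the groups. Ltf was well above background on 0 of 3 sham and 3 of 3 tail-suspension arrays, Ngp on 0 and 2, and Csf3r did not pass (limma, log2 difference 0.30, standard error 0.11, adjusted p = 0.0926). Ltf therefore entered the test only through tail-suspension, and its call adds no separate support. The summed linear level of the 5 markers, in units of the array's 75th percentile, was 143 to 171 in sham and 206 to 234 in tail-suspension, and most of it on every array was the bright Csf3r probe, with log2 levels of 7.15, 7.36 and 7.41 in the sham hearts, against 7.53, 7.71 and 7.57 in the tail-suspended hearts. Of 5 macrophage markers, Cd163 rose and was well above background on 0 of 3 sham arrays. Cd163 too entered the test only through tail-suspension. The summed level of the 5 macrophage markers was 21.7 to 28.4 in sham and 22.8 to 34.2 in tail-suspension. Of 5 endothelial markers, Kdr and Tie1 fell, and the summed level was 37.9 to 41 in sham and 28.4 to 31.6 in tail-suspension. None of the 4 erythroid markers passed by limma, with 3 lower at an unadjusted p under 0.05, and the summed level was 428 to 689 in sham and 106 to 344 in tail-suspension. All 5 fibroblast and all 5 smooth muscle and pericyte markers were tested, but only 2 of 4 atrial, 3 of 7 fast skeletal muscle and 1 of 5 adipocyte markers. None of those tested passed by limma, and at an unadjusted p under 0.05 Nppa, Dcn, Myh11 and Rgs5 were higher and Col1a1, Col1a2 and Atp2a1 lower. The summed level of the 8 cardiomyocyte markers was 4772 to 5027 in sham and 4352 to 4379 in tail-suspension, without overlap, and 1 of them, the cardiac actin gene Actc1, fell (limma, log2 difference -0.33, adjusted p = 0.0364). The part of these cells in the changes of the 12 genes was not tested.

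Of the 6 genes from hexokinase to phosphofructokinase, Hk2 fell and none rose. Hk2, the insulin-regulated hexokinase of muscle, had log2 levels of 4.76, 4.66 and 4.68 in the sham hearts, against 4.17, 3.97 and 4.06 in the tail-suspended hearts. The 2 groups were far apart relative to their spread, with a mean that went from 4.70 ± 0.05 to 4.07 ± 0.10 (SD, n = 3 per group). Hk2 was 1.55-fold lower (limma, log2 difference -0.63, standard error 0.09, adjusted p = 0.00824), which held with any 1 array left out and under the methods' t-test after adjustment. Tail-suspension replicate 1 lay -0.52 from the sham mean, so the direction was the same within the shared row, where the adjusted p with the row as a block was 0.109 (limma). Hk1, the form bound to mitochondria in most tissues, had log2 levels of 6.75, 6.59 and 6.67 in the sham hearts, against 6.76, 6.77 and 6.80 in the tail-suspended hearts. The groups did not overlap, but the difference was small (limma, log2 difference 0.10, standard error 0.08, adjusted p = 0.402). The other probes of Hk1 gave differences of 0.38 and 0.50, neither past the threshold. Gpi1, which turns glucose 6-phosphate into fructose 6-phosphate, differed by 0.13 (adjusted p = 0.422 by limma).

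None of the 3 phosphofructokinase subunits passed. Pfkm, the muscle subunit, had log2 levels of 7.80, 7.64 and 7.58 in the sham hearts, against 7.53, 7.46 and 7.49 in the tail-suspended hearts, where the groups did not overlap (limma, log2 difference -0.18, standard error 0.09, adjusted p = 0.203). Pfkl, the liver subunit, had log2 levels of 2.87, 2.82 and 2.60 in the sham hearts, against 3.05, 2.71 and 2.93 in the tail-suspended hearts (log2 difference 0.14, standard error 0.13, adjusted p = 0.451). Pfkp, the platelet subunit, had log2 levels of 1.45, 1.83 and 1.83 in the sham hearts, against 2.13, 1.29 and 2.01 in the tail-suspended hearts (log2 difference 0.11, standard error 0.24, adjusted p = 0.767). For Pfkl and Pfkp the groups overlapped, and the other probe of Pfkp gave -0.05 with an adjusted p of 0.883 (limma).

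Of the 4 genes for the enzymes that set fructose 2,6-bisphosphate, Pfkfb3 rose. Pfkfb3, the inducible form with the strongest kinase activity, had log2 levels of 0.06, -0.45 and 0.03 in the sham hearts, against 0.76, 0.78 and 0.98 in the tail-suspended hearts. The lowest tail-suspension array stood well above the highest sham array, and the rise was 1.94-fold (limma, log2 difference 0.96, standard error 0.16, adjusted p = 0.0118). Left-out arrays moved the adjusted p to at most 0.0448, and the difference in tail-suspension replicate 1 alone was 0.88. A second Pfkfb3 probe was above background on no sham array and 2 tail-suspension arrays and was not tested. Pfkfb2, the heart form that insulin signalling activates, had log2 levels of 1.62, 1.58 and 1.79 in the sham hearts, against 2.05, 1.96 and 1.91 in the tail-suspended hearts. These groups did not overlap, yet the difference did not pass (limma, log2 difference 0.31, standard error 0.10, adjusted p = 0.0655). Pfkfb4 differed by -0.25 and Pfkfb1 by 0.10, neither past the threshold.

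In the lower part of glycolysis, from aldolase to pyruvate kinase, 1 of 9 genes fell and none rose. That gene was Eno3, the enolase of adult striated muscle, with log2 levels of 8.89, 8.82 and 8.81 in the sham hearts, against 8.52, 8.42 and 8.55 in the tail-suspended hearts. It was 1.26-fold lower (limma, log2 difference -0.34, standard error 0.08, adjusted p = 0.0352), a call that was lost whichever of the 6 arrays was left out (adjusted p up to 0.108). Eno1, the enolase of most other tissues, had log2 levels of 5.56, 5.32 and 5.46 in the sham hearts, against 5.85, 5.54 and 5.83 in the tail-suspended hearts, with overlap of the groups (log2 difference 0.29, standard error 0.12, adjusted p = 0.125). Pgam2, the muscle phosphoglycerate mutase, had log2 levels of 7.85, 7.81 and 7.71 in the sham hearts, against 7.65, 7.13 and 7.47 in the tail-suspended hearts, and Pgam1, the general form, had 5.0, 5.21 and 4.61 in the sham hearts, against 5.09, 4.60 and 5.22 in the tail-suspended hearts. The Pgam2 groups did not overlap (limma, log2 difference -0.37, standard error 0.14, adjusted p = 0.105), and the Pgam1 groups did (log2 difference 0.03, standard error 0.22, adjusted p = 0.936). Aldoa, the muscle aldolase, stood at 10.16, 10.12 and 10.0 in the sham hearts, against 10.15, 10.07 and 10.13 in the tail-suspended hearts, and Aldoc, the brain aldolase, at -3.84, -2.85 and -3.30 in the sham hearts, against -2.81, -3.15 and -2.69 in the tail-suspended hearts. Neither aldolase passed, with differences of 0.02 for Aldoa and 0.45 for Aldoc (adjusted p = 0.893 and 0.241 by limma). Tpi1, which interconverts the triose phosphates, differed by 0.11, Pgk1, the first step that yields ATP, by -0.16, and Pkm2, the name under which the array lists muscle pyruvate kinase, by -0.23. None of these passed. The files place the Pgk1 probe on chromosome 3 although the gene lies on X, so its value is uncertain.

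At the branch between lactate and the mitochondrion, 9 genes were read, of which Pdk1 rose and Pdhb, Dlat and Dld fell. Pdhb encodes the beta subunit of the first enzyme of the pyruvate dehydrogenase complex, and its log2 levels were 7.59, 7.50 and 7.30 in the sham hearts, against 6.99, 6.94 and 7.14 in the tail-suspended hearts (limma, log2 difference -0.44, standard error 0.11, adjusted p = 0.0377). Dlat, the acetyltransferase core of the complex, had log2 levels of 5.21 and 5.02 in the sham hearts, against 4.76, 4.44 and 4.56 in the tail-suspended hearts, where sham replicate 2 was dropped for an outlier flag and the fit used 2 sham arrays (log2 difference -0.53, standard error 0.14, adjusted p = 0.0471). Dld, the dihydrolipoamide dehydrogenase that the complex shares with other mitochondrial enzymes, had log2 levels of 5.21, 5.32 and 4.94 in the sham hearts, against 4.74, 4.75 and 4.60 in the tail-suspended hearts (log2 difference -0.46, standard error 0.12, adjusted p = 0.0416). For each of these genes all tail-suspension arrays lay below all sham arrays. When 1 array was left out, Pdhb and Dld passed only without sham replicate 3, and Dlat never did, with adjusted p of up to 0.123, 0.131 and 0.184 (limma). With normexp background correction none of them passed. Pdha1, the alpha subunit of the first enzyme, differed by -0.10 and did not pass (limma, standard error 0.11, adjusted p = 0.531).

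The probes of Pdhb disagreed. The chosen probe (chr14:8998548-8998607, minus strand, mm9) and a second one that overlaps it both fell, and the second fell by 0.50 on the log2 scale (adjusted p = 0.0432 by limma). The third probe lies at chr14:9003605-9003664 and is listed under a cDNA clone instead of the reference transcript. Its log2 levels were -0.38, -0.32 and 0.03 in the sham hearts, against 0.55, 0.40 and 0.40 in the tail-suspended hearts, so it rose (0.67, standard error 0.13, adjusted p = 0.019 by limma). The second probe of Dld differed by -0.42 and missed the threshold (adjusted p = 0.0806).

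Pdk1, a kinase that inactivates the complex, had log2 levels of 1.44, 1.45 and 1.40 in the sham hearts, against 1.87, 2.14 and 1.73 in the tail-suspended hearts. The sham arrays lay close together and all tail-suspension arrays lay above them, a rise of 1.4-fold (limma, log2 difference 0.48, standard error 0.12, adjusted p = 0.0357). With 1 array left out it passed only without tail-suspension replicate 2 or replicate 3 (adjusted p up to 0.106). Pdk2, the kinase widely used by the heart, had log2 levels of 5.67, 5.62 and 5.58 in the sham hearts, against 5.72, 5.98 and 5.62 in the tail-suspended hearts, with overlap of the groups (log2 difference 0.15, standard error 0.11, adjusted p = 0.38). Pdk3 differed by 0.42 without overlap of the groups but did not pass (adjusted p = 0.0782 by limma). Of the lactate dehydrogenases, Ldha, the muscle form that favours lactate, had log2 levels of 8.40, 8.29 and 8.27 in the sham hearts, against 8.55, 8.27 and 8.53 in the tail-suspended hearts. Ldhb, the heart form, had log2 levels of 8.72, 8.51 and 8.52 in the sham hearts, against 8.57, 8.51 and 8.39 in the tail-suspended hearts. Both overlapped between the groups, with differences of 0.13 and -0.09 (adjusted p = 0.421 and 0.526 by limma).

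Of the 9 glycogen genes, Pygl rose and Pygb and Phkb fell. Pygl, the glycogen phosphorylase named for liver, had log2 levels of 0.90, 0.67 and 0.63 in the sham hearts, against 1.40, 1.15 and 1.57 in the tail-suspended hearts. All tail-suspension arrays lay above all sham arrays, a rise of 1.56-fold (limma, log2 difference 0.64, standard error 0.14, adjusted p = 0.0245), which passed only without sham replicate 1 or tail-suspension replicate 2 when 1 array was left out (adjusted p up to 0.0885). Pygb, the phosphorylase named for brain and also made in the heart, had log2 levels of 5.67, 5.46 and 5.23 in the sham hearts, against 4.53, 5.12 and 4.58 in the tail-suspended hearts. Tail-suspension replicate 2 lay nearest to the sham arrays, and Pygb was 1.64-fold lower (limma, log2 difference -0.71, standard error 0.19, adjusted p = 0.0457). That call held only without tail-suspension replicate 2 among the left-out arrays (adjusted p up to 0.129). Pygm, the muscle phosphorylase, had log2 levels of 7.08, 6.96 and 6.87 in the sham hearts, against 7.0, 7.09 and 6.98 in the tail-suspended hearts, with overlap of the groups (log2 difference 0.05, standard error 0.09, adjusted p = 0.724). Phkb, the regulatory subunit of phosphorylase kinase, had log2 levels of 0.41, 0.24 and 0.14 in the sham hearts, against -0.14, -0.13 and -0.40 in the tail-suspended hearts, with a difference of -0.49 (standard error 0.12, adjusted p = 0.034 by limma). It passed only without sham replicate 3 or tail-suspension replicate 2 (adjusted p otherwise up to 0.101), and its second probe differed by -0.10 (adjusted p = 0.522). Phka1, another regulatory subunit, differed by 0.33, and the genes of glycogen synthesis, Gys1, Ugp2, Gbe1 and Gyg, differed by 0.16, -0.06, -0.26 and 0.07. None of these 5 passed.

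Several steps are served by alternative forms, one typical of adult heart or muscle and one of other tissues, and the balance of each such pair was compared within the array. For each of 12 pairs the log2 ratio of both probes was taken on every array, which removes the scaling of the array, and set against its sham mean. The groups did not overlap in 9 of the 12 pairs, of which 7 hold a gene that had passed by itself and 2 (Pfkl with Pfkm, Pgam1 with Pgam2) do not. Of all single genes tested 46.5% did not overlap, and no such share was taken for ratios of other probe pairs. In 8 of these 9 pairs the ratio of the less typical to the muscle or heart form was higher on every tail-suspension array, and in 1 pair it was lower. Which form is typical was set by name and not by level. In sham the Hk1 probe (mean 6.67) was brighter than that of Hk2 (4.70), and Slc16a3 (-1.17) brighter than Slc16a1 (-3.30). The exact two-sided permutation test gave 0.1 for these pairs, the smallest p that 3 arrays against 3 allow, and 0.133 after Benjamini-Hochberg adjustment over the 12 pairs, so none passed 0.05.

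The ratio of Slc16a3 to Slc16a1 differed the most, with -0.03, -0.28 and 0.31 in the sham hearts and 1.23, 0.58 and 1.25 after tail-suspension, a mean difference of 1.02. The Slc16a1 probe was dim, and Slc16a3 by itself differed by 0.93. The ratio of Slc2a1 to Slc2a4 was -0.04, -0.13 and 0.17 in the sham hearts and 0.63, 1.05 and 1.14 after tail-suspension, a difference of 0.94. For Hk1 over Hk2 it was 0.02, -0.04 and 0.02 against 0.61, 0.83 and 0.76, a difference of 0.74 with little spread within sham. In both transport pairs the first gene had passed on its own, and in the hexokinase pair the second had. The enolase ratio, Eno1 over Eno3, was 0.07, -0.11 and 0.05 in sham and 0.72, 0.51 and 0.67 in tail-suspension, a difference of 0.63. The ratio of Pfkfb3 to Pfkfb2 differed by 0.65, Pgam1 over Pgam2 by 0.40, Pdk1 over Pdk2 by 0.33 and Pfkl over Pfkm by 0.32. The pair with the lower ratio was Pygb over Pygm, with 0.11, 0.02 and -0.12 in sham and -0.95, -0.45 and -0.88 in tail-suspension, a difference of -0.76. The groups overlapped for Aldoc over Aldoa (0.43, exact p = 0.2), Ldha over Ldhb (0.22, exact p = 0.2) and Pfkp over Pfkm (0.29, exact p = 0.5). A ratio within an array shows unequal change of the 2 probes and not which of them stayed level.

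**Figure D3:**
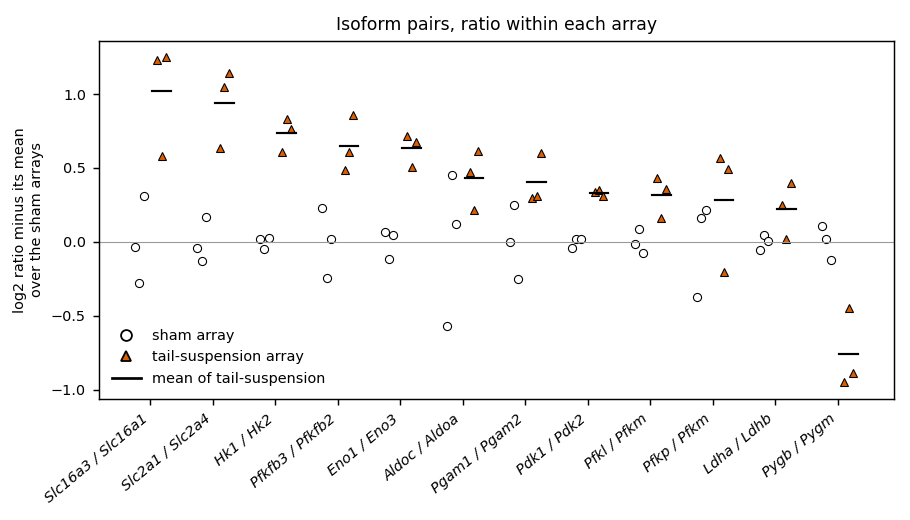
Log2 ratio of the first to the second gene of each of the 12 pairs on each array, minus its mean over the sham arrays (vertical axis), with open circles for sham, triangles for tail-suspension and a line for the tail-suspension mean. The ratios of Slc16a3 to Slc16a1 and of Slc2a1 to Slc2a4 lie furthest up in tail-suspension, with means of 1.02 and 0.94, and of the 12 means only that of Pygb to Pygm lies below 0.

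A further 75 genes of glucose use, covering other forms of these enzymes, other glycogen and pyruvate proteins, the pentose phosphate and polyol routes, insulin and AMPK signalling and transcriptional regulators, were read in the same way. Of these, 71 were tested, and 12 rose and 10 fell, which is 31% of those tested, beside 21.2% of all genes tested, with 10.6% of these higher and 10.5% lower. The remaining 4 were not tested because their probe was not well above background on every array of a group (Slc5a1, Pklr, Fbp1 and Gys2).

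Among other carriers and glycolytic enzymes, Slc2a3, the high-affinity carrier also known as GLUT3, and Eno2, the neuronal enolase, rose. Slc2a3 rose by 0.84 on the log2 scale and Eno2 by 0.66 (adjusted p = 0.0133 and 0.0264 by limma). Slc2a3 missed the threshold without sham replicate 2 (adjusted p = 0.054), and Eno2 passed only without sham replicate 1 or tail-suspension replicate 2 (adjusted p otherwise up to 0.0829). Gapdh, the glycolytic enzyme often used as a reference gene, had log2 levels of 9.40, 9.45 and 9.19 in the sham hearts, against 9.25, 9.36 and 9.33 in the tail-suspended hearts, with overlap of the groups (limma, log2 difference -0.03, standard error 0.10, adjusted p = 0.828).

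Around pyruvate, Pdhx, the protein that holds Dld in the pyruvate dehydrogenase complex, Pdp1, the phosphatase that reactivates the complex, and Brp44, the mitochondrial pyruvate carrier subunit now named Mpc2, fell. Pdhx had log2 levels of 3.80, 3.91 and 3.61 in the sham hearts, against 3.10, 2.73 and 2.99 in the tail-suspended hearts (limma, log2 difference -0.83, standard error 0.13, adjusted p = 0.0105), and Pdp1 had 2.63, 2.34 and 2.49 in the sham hearts, against 1.86, 1.79 and 1.86 in the tail-suspended hearts (log2 difference -0.65, standard error 0.10, adjusted p = 0.01). The groups did not overlap for either, and both calls held with any 1 array left out. Brp44 differed by -0.45 (adjusted p = 0.024 by limma) and passed only without sham replicate 3 or tail-suspension replicate 2 (adjusted p otherwise up to 0.091). With Pdhb, Dlat and Dld, 4 of the 5 complex genes read here were called lower on their brightest probe, beside 10.5% of all genes tested. Of these 4 calls only that of Pdhx held with any 1 array left out. Pdk4, the kinase that rises in the heart on fasting, had log2 levels of 4.81, 4.91 and 4.54 in the sham hearts, against 4.12, 5.89 and 4.35 in the tail-suspended hearts. Tail-suspension replicate 2 stood above every other array and replicates 1 and 3 below every sham array, so the groups overlapped (limma, log2 difference 0.03, standard error 0.45, adjusted p = 0.964). Without replicate 2 the Pdk4 difference was -0.52 (adjusted p = 0.058 by limma). Pcx, which carboxylates pyruvate to oxaloacetate, rose by 0.50, a call lost whichever array was left out (adjusted p up to 0.103).

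Of the 17 other glycogen genes tested, 3 fell and none rose, which is 17.6% beside the 21.2% of all genes tested. They were Ppp1r3c and Ppp1r3d, which bring protein phosphatase to glycogen, and Nhlrc1, the malin ubiquitin ligase that is lost in Lafora disease. Their differences were -0.69, -0.75 and -0.76 (adjusted p = 0.0455, 0.0196 and 0.0307 by limma). Ppp1r3c passed only without sham replicate 3, Ppp1r3d only without sham replicate 3 or tail-suspension replicate 2, and Nhlrc1 missed the threshold without 3 of the 6 arrays (sham replicates 1 and 2 and tail-suspension replicate 3), with adjusted p of up to 0.138, 0.0757 and 0.104. The second probe of Nhlrc1 differed by -1.20 and did not pass (adjusted p = 0.0516 by limma). Akr1b3, the aldose reductase that opens the polyol route, fell by 0.66 on the log2 scale (adjusted p = 0.00765 by limma), and Sord, the next enzyme of that route, rose by 0.46 (adjusted p = 0.0216). The Akr1b3 call held with any 1 array left out, whereas Sord passed only without sham replicate 1 or tail-suspension replicate 2 (adjusted p otherwise up to 0.0842).

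In insulin signalling, Irs2, an adaptor of the insulin receptor, had log2 levels of 2.47, 2.93 and 2.89 in the sham hearts, against 3.90, 4.34 and 3.40 in the tail-suspended hearts, a rise of 2.17-fold (limma, log2 difference 1.12, standard error 0.25, adjusted p = 0.0279) that passed only without tail-suspension replicate 2 or replicate 3 (adjusted p otherwise up to 0.0817). Pik3r1, the regulatory subunit of phosphoinositide 3-kinase, rose 2.15-fold and Insr, the insulin receptor, 1.62-fold (adjusted p = 0.00853 and 0.00824), and both held with any 1 array left out, although the second probe of Insr missed the threshold (adjusted p = 0.0507). The regulator Myc, a transcription factor that drives glycolytic genes, had log2 levels of -2.94, -2.81 and -2.91 in the sham hearts, against -0.89, -1.73 and -1.23 in the tail-suspended hearts (limma, log2 difference 1.60, standard error 0.20, adjusted p = 0.00588), and its rise passed with the row as a block as well (adjusted p = 0.0244). Klf15, a factor that raises Slc2a4 and other metabolic genes in muscle, rose by 0.95 (adjusted p = 0.0284 by limma) and passed only without sham replicate 2 or sham replicate 3 (adjusted p otherwise up to 0.084). Txnip, which restrains glucose uptake and rises with glucose, had log2 levels of 4.63, 3.70 and 4.10 in the sham hearts, against 4.79, 5.23 and 4.82 in the tail-suspended hearts. Its groups did not overlap, and the difference of 0.81 did not pass (adjusted p = 0.0623 by limma). Its relative Arrdc4 rose by 0.57 on its brightest probe (adjusted p = 0.0433) and differed by -0.51 on its second (adjusted p = 0.0936). The other calls were rises of Prkag1 and H6pd and falls of Prkab2 and Rpia, with differences between -0.58 and 0.44. Each of these 4 and Arrdc4 passed in at most 2 of the 6 fits that left out 1 array (adjusted p otherwise up to 0.132 for Arrdc4 and 0.122 for Prkab2).

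**Figure D4:**
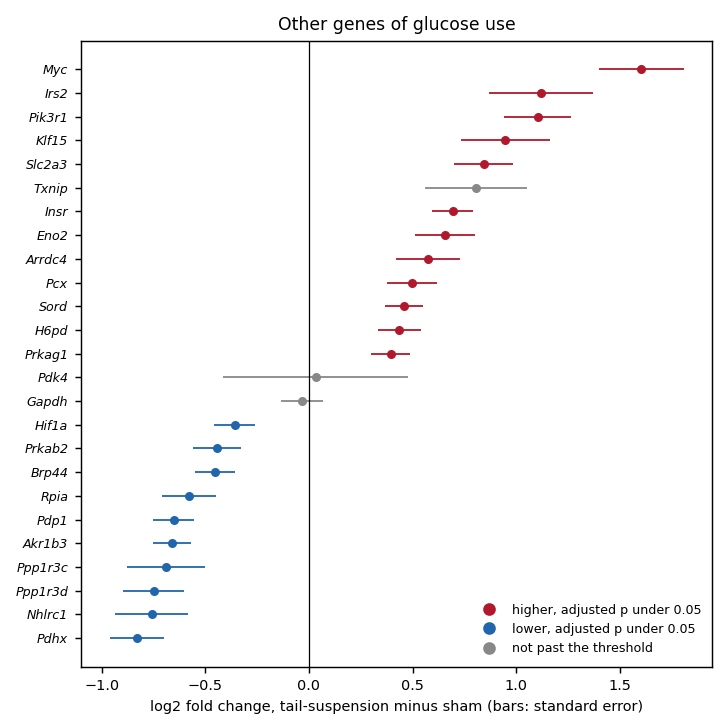
Log2 fold change, tail-suspension minus sham (horizontal axis), with the standard error of the limma fit, for the 22 of the 75 further genes that passed an adjusted p of 0.05 and for Pdk4, Gapdh and Txnip. Myc stands furthest to the right at 1.60 and Pdhx furthest to the left at -0.83, and Pdk4 has the widest bar.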

How the data were processed

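Total RNA of 6 mouse hearts was labelled with Cy3 and hybridised to 1-colour Agilent arrays. The authors extracted the scans with Agilent Feature Extraction 10.7.1.1 (version per the submitters' processing notes) and deposited a processed intensity for each spot, after background correction. A deposited table of log2 values for these 6 arrays was also at hand. Its columns correlated above 0.999 with the log2 processed intensity and had equal medians of 4.33. How that table was normalized is not given in the sources used here.

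The log2 processed intensity minus the 75th percentile of each array (302 to 376) was analysed in R 4.3.3. Controls and outlier-flagged spots (146 to 212 per array) were removed before averaging replicate spots. Well above background means that at least 50% of a probe's spots carried that flag, and the 28032 probes for which this held throughout 1 group or both were tested. Groups were compared with limma 3.58.1 (lmFit, then eBayes, without covariates; Benjamini-Hochberg threshold 0.05). The steps were tested on simulated data. Precision is limited by the 6 arrays, and p-values measure the spread between 3 mice per group. Gene names follow the design of the array, probe coordinates those of the files (mm9), and promoter windows those of RefSeq.

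The 41 genes, the 75 further genes and the marker lists were chosen with earlier results of these data known. Of the lists as first drawn up, 1 further gene and 1 marker are not reported here. Values on each array are given for genes past the threshold whose groups do not overlap, mainly those with a difference of at least 0.5, and for the isoform pairs. Of the further genes Pdk4, Gapdh, Txnip and those with the largest changes are named. The closing section gives the alternatives.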

Additional observations from a re-analysis of the deposited data

How the results depend on the processing

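The 12 genes past the threshold kept their direction under every alternative tried. Beside 5 higher and 7 lower genes, quantile normalization, the deposited log2 values, a percentile over detected probes, outlier spots kept and a filter on all 6 arrays each gave 5 and 7. Normexp background correction gave 6 and 3, array weights 8 and 7, and no filter on dim probes, which raises the number of probes tested, 1 and 1. A 2-fold minimum left 0 and 0. With the methods' t-test 6 and 7 passed unadjusted and 0 and 2 after Benjamini-Hochberg adjustment. With the slide row as a block 0 and 0 passed (limma; 6 and 3 unadjusted). Samples that share a replicate number did not deviate together (correlations of -0.02, -0.02 and 0.05), and the replicate block gave 3 and 2. With each array left out, 1 to 6 genes were higher and 1 to 4 lower.

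Of the 75 further genes, 12 were higher and 10 lower, against 5 and 3 with no filter, 19 higher with array weights, 4 and 4 with the methods' t-test, 6 and 6 with the replicate block, 1 and 0 with the slide row as a block, and 4 to 15 and 3 to 9 with each array left out. Among these alternatives, reversed signs were found only for genes that had not passed and for the second probe of Arrdc4 (-0.51). The third probe of Pdhb, which was not among them, rose by 0.67 where the chosen probe fell. Ugp2 (0.0065) and Gapdh (0.018) reversed under normexp, where the ratio of Aldoc to Aldoa was -0.078. Slc2a4 (-0.071), Pygm (-0.063) and Gapdh (0.064) reversed under quantile normalization, and Slc2a4 (-0.039), Pygm (-0.043) and Gapdh (0.059) with the deposited log2 values. Pdk4 was -0.30 with array weights. With the row as a block, Ugp2 was 0.18, Gbe1 0.0042, Pfkfb1 -0.28 and Pdk4 -0.63. On the second probe, Pfkp was -0.052, Tpi1 -0.11 and Ugp2 0.051. With each array left out, Slc2a4 ranged from -0.079 to 0.20, Pfkp from -0.053 to 0.37, Ugp2 from -0.17 to 0.084, Pfkfb1 from -0.045 to 0.28, Gapdh from -0.11 to 0.017, Aldoa from -0.027 to 0.051, Pgam1 from -0.14 to 0.21, Pygm from -0.00051 to 0.11, Gyg from -0.018 to 0.17 and Pdk4 from -0.52 to 0.37. The cause of these changes was not tested. Probes with a dim reading in both the sham and the tail-suspension group were not tested. A probe just above background has little room to show a fall.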
